A study of Mus musculus with 3 samples.

Results

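The skeletal myogenic regulators described here are 10 mouse genes: the myogenic bHLH factors Myod1, Myf5, Myf6 and Myog, the paired-box factors Pax3 and Pax7, the homeobox factor Meox2, the MADS-box factors Mef2a and Mef2d, and the muscle acetylcholine receptor subunit gene Chrna1. They were chosen by symbol, through the accessions that the array gives its probes. All 10 were on the array, where they had 15 of 39429 probes and 51 of 43020 non-control spots. Expression was compared between embryoid bodies without Hopx (genotype Hopx-/-, called null) and embryoid bodies with 1 mutant and 1 working copy (Hopx+/-, called heterozygous), both at day 8 of cardiac differentiation, on 3 2-colour Agilent arrays. The Hopx protein is an unusual homeodomain protein of the developing heart and of several stem cell pools. No wild-type culture was used here, so the controls also carry a mutant allele.

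Both genotypes were made and treated alike. Stem cells were derived from blastocysts at embryonic day 3.5 on STO feeder cells with a MEK1 inhibitor at 50 µM, and later kept on inactivated mouse embryonic fibroblasts. Embryoid bodies, which are aggregates of differentiating stem cells, grew from hanging drops of 20 µl before they moved to a medium with VEGF, bFGF, FGF10, ascorbic acid and Glutamax. The series' design text calls the 3 replicates of each genotype biological. How many stem cell lines stood behind them is not stated in the sources used here, so each genotype may rest on few clones. The limma p-values rest on the spread between these 3 arrays, with each probe's variance drawn toward that of all probes. Embryoid bodies hold many cell types, and fewer cells of a type cannot be told apart from less RNA per cell.

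In the embryo, skeletal muscle of the trunk arises from somites, the blocks of paraxial mesoderm beside the neural tube. Pax3 and Pax7 mark its progenitors, Myf5, Myf6 and Myod1 commit cells to the muscle lineage, and Myog drives their differentiation into fibres. The bHLH factors bind E-boxes (CANNTG) with partners of the E-protein family, and Mef2 proteins bind A/T-rich sites and act with them. The pattern searched here on both strands, CTANNNNTA, is looser than a Mef2 site, since any base may stand in its middle. Pax3 is also made in the dorsal neural tube and neural crest, Meox2 in limb mesenchyme and blood vessels as well as somites, and Mef2a and Mef2d in many tissues, the heart among them.

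Promoter sequence was held for 7 of the 10 genes in a RefSeq table (build GRCm38.p6), as 250 bases up to the base before the gene's start. The following promoters are shown because Myog and Chrna1 are known targets of the myogenic factors and were dim on these arrays, while Meox2 was called. They are written 5′ to 3′ on the gene's own strand, with E-boxes and matches to CTANNNNTA in capitals.
Myog, chr1:134289754-134290003, plus strand: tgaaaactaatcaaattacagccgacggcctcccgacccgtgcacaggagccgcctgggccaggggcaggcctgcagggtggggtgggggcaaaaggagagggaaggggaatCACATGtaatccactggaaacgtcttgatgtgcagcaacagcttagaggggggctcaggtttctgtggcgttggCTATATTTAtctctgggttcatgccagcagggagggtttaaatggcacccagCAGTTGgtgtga
Chrna1, chr2:73580339-73580588, minus strand: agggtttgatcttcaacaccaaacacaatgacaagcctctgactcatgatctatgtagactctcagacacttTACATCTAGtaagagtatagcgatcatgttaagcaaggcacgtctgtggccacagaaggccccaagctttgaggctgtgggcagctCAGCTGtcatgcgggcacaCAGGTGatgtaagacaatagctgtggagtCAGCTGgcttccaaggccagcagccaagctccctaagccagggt
Meox2, chr12:37108290-37108539, plus strand: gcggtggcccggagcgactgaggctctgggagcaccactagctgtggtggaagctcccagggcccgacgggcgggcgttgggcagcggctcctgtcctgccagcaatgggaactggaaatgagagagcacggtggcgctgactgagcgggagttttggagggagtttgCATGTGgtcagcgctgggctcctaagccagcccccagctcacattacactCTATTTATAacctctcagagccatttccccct

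Counted from the gene's start, the Myog promoter holds CACATG at -138, CTATATTTA at -64 and CAGTTG at -12. That of Chrna1 holds TACATCTAG, a match on the opposite strand whose middle is not all A and T, at -178 and E-boxes at -92, -73 and -44. For Meox2, CATGTG lies at -82 and CTATTTATA at -32. These letters are common: of 32851 promoters of the same length, 66.2% hold at least 1 E-box, 31.8% at least 2 and 12.2% at least 3, and 19% hold at least 1 match to CTANNNNTA on either strand. The windows of Myf5, Pax7, Mef2a and Mef2d hold no E-box, which describes only these windows. Myf5 and Myf6 are neighbours on chromosome 10 in the same table.

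Each array carried null RNA in one dye and heterozygous RNA in the other. The labels give Cy5 to the null RNA on all 3 arrays, but the ratios of replicate 3 ran against those of the others (Pearson's r across probes -0.874 with each, against 0.924 between replicates 1 and 2). As labelled, the ratio of Hopx itself was -2.98, -2.97 and 3.45 on the log2 scale. The authors' deposited value table has replicate 3 in the opposite direction to the scanner ratios (r = -0.867), and replicate 3 was turned in the same way here. Where the probes of Hopx lie relative to the disrupted part of the gene is not stated in the sources used here. Turned, Hopx was lower in null cultures by 8.76-fold (log2 -3.13, SE 0.11, n = 3 arrays, limma adjusted p = 2.8e-07). With replicate 3 as labelled, no gene was called by limma, and every direction below rests on the turn. Between 61.9% and 72.9% of spots were well above background in a channel. Of 19802 genes tested, 60.3% were called, 30.2% higher and 30.1% lower in null cultures, so a single call says little here.

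The heart muscle genes listed were present and lower in null cultures, while 6 of the 10 skeletal myogenic regulators were too dim to test. For scale, 19802 of the 32176 genes and unnamed accessions on the array could be tested. A probe was taken as above background in a genotype where most of its spots carried the scanner software's flag for that channel on all 3 arrays. By this rule Pax3, Meox2, Mef2a and Mef2d were above background in null cultures, and 3 of these, without Meox2, in heterozygous cultures. The other 6 genes, Myod1, Myf5, Myf6, Myog, Pax7 and Chrna1, were above it on all 3 arrays in neither genotype. Probes of Myf5, Myog and Chrna1 were above it on no array at all. In contrast, all 15 cardiac muscle genes listed (such as Myh6, Myh7 and Nkx2-5) were above background in at least 1 genotype and all 15 were called lower, with a median ratio of -3.18. That list was chosen with earlier results of these data known, and 30.1% of all genes tested were called lower.

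**Figure D1:**
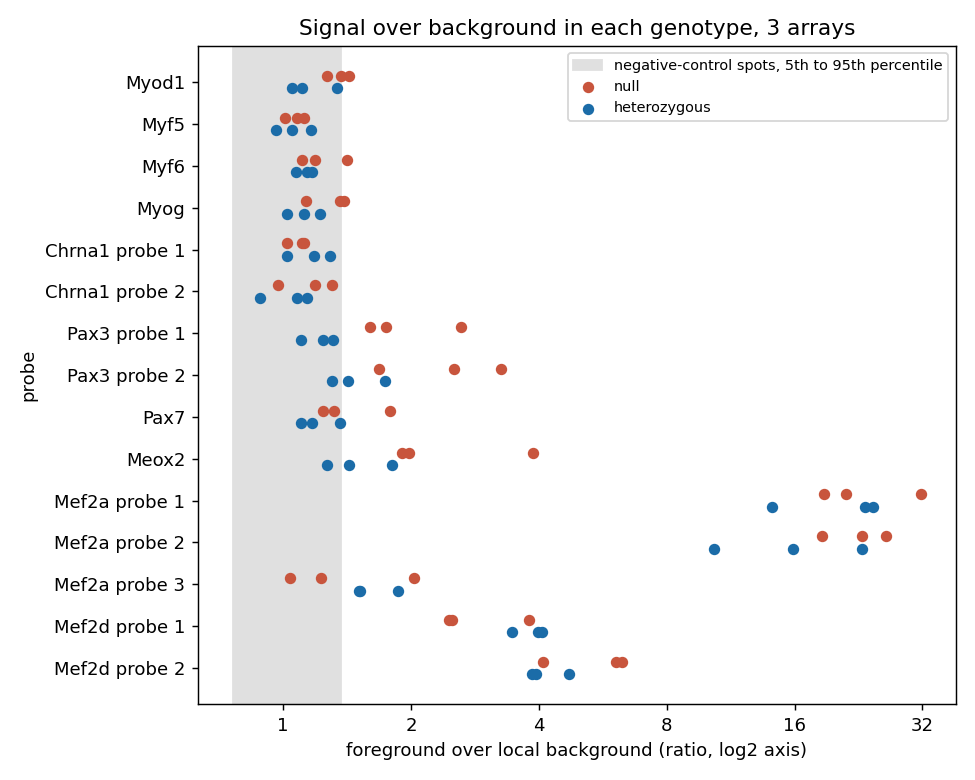
Foreground over local background (a ratio on a log2 axis) for the 15 probes in null and heterozygous channels, with 1 point per array and a grey band for the lowest 5th to the highest 95th percentile of negative-control spots, 0.76 to 1.37. Probes of Myf5 and Chrna1 lie wholly inside the band, the Pax3 probe with 10 spots (probe 1) is outside it only in null channels, and 2 of the Mef2a probes and both of Mef2d lie beyond it in each genotype.

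The level of each probe was set against its local background, as the ratio of foreground to background. For 153 negative-control spots an array, which match no mouse gene, the median ratio lay between 0.90 and 1.07 by channel, and 12 of 918 readings (1.31%) were flagged as above background. Myod1, the factor that can turn other cells into muscle, read 1.43, 1.37 and 1.27 in null channels of replicates 1, 2 and 3 and 1.11, 1.05 and 1.34 in heterozygous channels. Its values overlap between genotypes, and the highest of the heterozygous ones comes from the array that was turned. Myog, the differentiation factor, gave 1.36, 1.39 and 1.13 against 1.12, 1.02 and 1.22. These too overlap, with the null channels higher in replicates 1 and 2 and lower in replicate 3. Myf5, the earliest of the bHLH factors in the embryo, stayed between 1.01 and 1.12 in null channels and between 0.96 and 1.16 in heterozygous channels, at the level of the negative controls.

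Among the remaining dim genes, Myf6 read 1.19, 1.11 and 1.41 in null channels and 1.14, 1.07 and 1.17 in heterozygous channels. One null channel, that of replicate 3, was flagged as above background. Pax7, a progenitor and satellite-cell factor, read 1.24, 1.32 and 1.78 in null channels and 1.17, 1.1 and 1.36 in heterozygous channels, and again replicate 3 alone was flagged, in the null channel. The null reading was the higher on each array for both genes, but the groups overlap and these readings are not normalized between dyes. Normalized log2 ratios of null over heterozygous were 0.06, -0.02 and 0.06 for Myf6 and 0.05, 0.10 and 0.06 for Pax7. Both probes of Chrna1, whose product is the ligand-binding subunit of the muscle receptor, lay between 0.88 and 1.30 in all channels. Over the 7 probes of these 6 genes, ratios of null over heterozygous lay between -0.20 and 0.23 on the log2 scale. Being too dim in both genotypes, they were not tested, and a difference was not detectable at this signal.

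**Figure D2:**
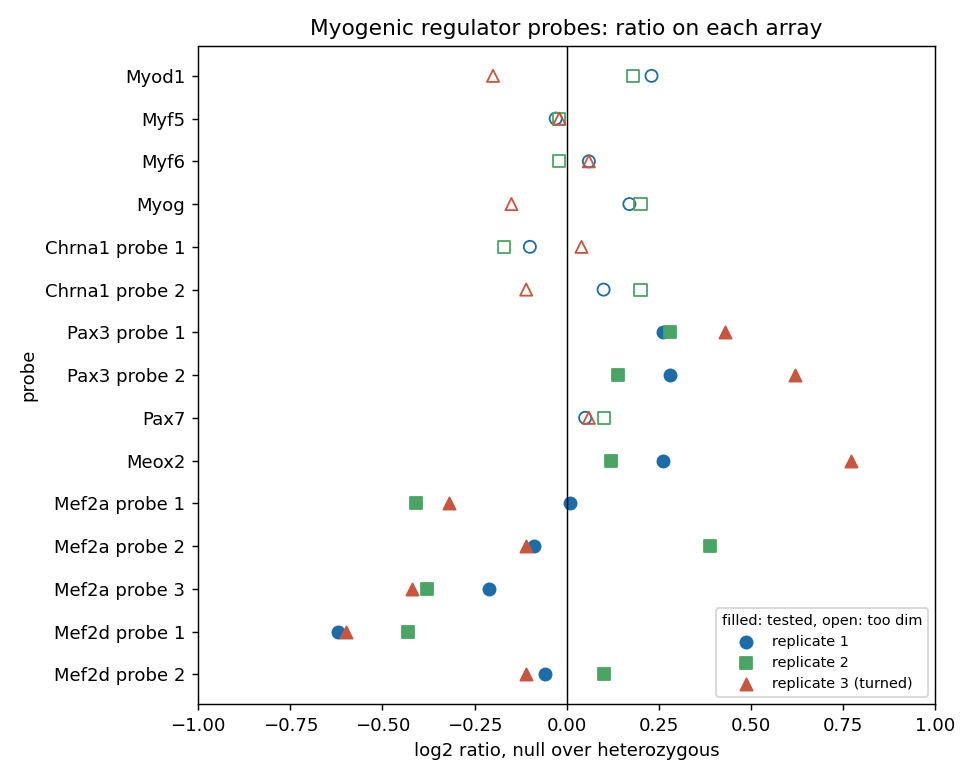
Log2 ratio of null over heterozygous on each of 3 arrays for the 15 probes, with replicate 3 turned, filled points for probes tested and open points for probes too dim to test. Both Pax3 probes and Meox2 are above 0 on all 3 arrays, 1 Mef2d probe and the dimmest Mef2a probe (probe 3) are below 0 on all 3, and the open points stay between -0.20 and 0.23.

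The array carries 10 spots each of single probes for Myod1, Myf5, Myog and Pax3, which shows how far a dim ratio repeats within an array. In the order of the labels, before any turn, the log2 ratio of Cy5 over Cy3 for Myod1 averaged 0.23 (SD 0.07 between 10 spots), 0.18 (SD 0.09, 10 spots) and 0.20 (SD 0.07, 8 spots left after outlier spots). All its spots were above 0 on every array, including replicate 3, where genotypes are taken to be swapped between dyes. Myog averaged 0.17 (SD 0.06, 9 spots), 0.20 (SD 0.12, 8 spots) and 0.15 (SD 0.13, 10 spots), with 1 spot below 0 on each of replicates 2 and 3. On average Cy5 was thus the higher channel for Myod1 and Myog whichever genotype it is taken to hold. Myf5 averaged -0.03, -0.02 and 0.02, with SDs of 0.10, 0.10 and 0.19 over 10 spots, centred near 0 on each array.

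Pax3 was the exception among the repeated probes. As labelled its ratio was 0.26 (SD 0.10, 8 spots), 0.28 (SD 0.07, 8 spots) and -0.43 (SD 0.08, 9 spots), turning with the genotype as Hopx did, in the opposite direction. All Pax3 spots of an array had the same sign. Out of 30 spots in each genotype (10 repeats on each of 3 arrays), 29 were well above background in null channels and 2 in heterozygous channels. The filter, which this probe passed only through the null channel, used the same flags. For Myod1 the counts were 13 and 0, of which 11 in Cy5 and 2 in Cy3, for Myog 5 and 1, and for Myf5 none in either. For scale, single negative-control spots had median labelled ratios of 0.02, 0.04 and 0.07, with a 95th percentile of 0.26, 0.22 and 0.27.

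**Figure D3:**
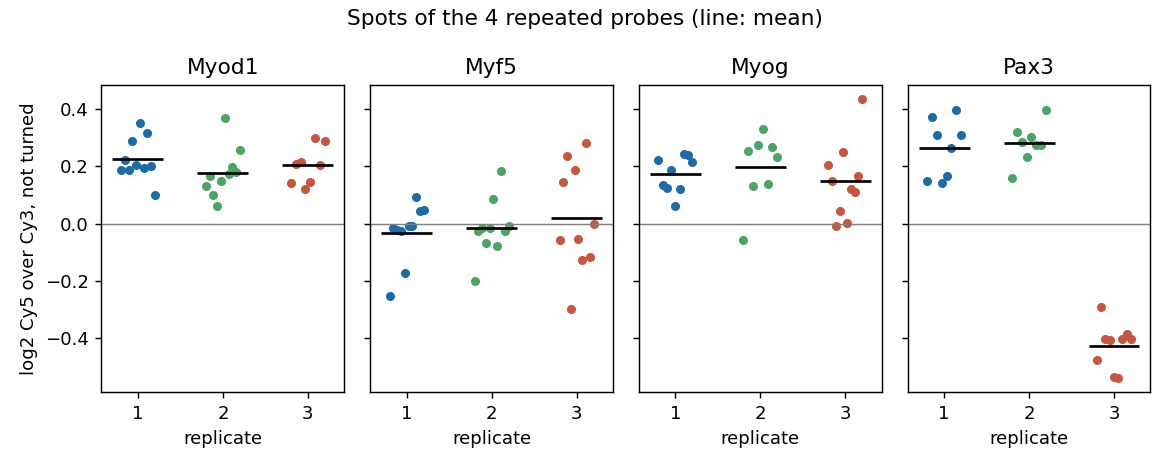
Log2 ratio of Cy5 over Cy3 for each spot of the 4 probes printed 10 times, by replicate and before replicate 3 was turned, with a line at the mean. The means of Myod1 and Myog lie above 0 on all 3 arrays, with 1 Myog spot below 0 on each of replicates 2 and 3, Myf5 is centred near 0, and Pax3 changes from 0.26 and 0.28 to -0.43 on replicate 3.

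With a term for dye beside that for genotype, fitted over the 3 arrays, Myod1 had a genotype coefficient of 0 and a dye coefficient of 0.20, and Myog 0.02 and 0.17. Myf5, Myf6 and Pax7 were small on both, their genotype coefficients being -0.02, 0.04 and 0.07. Pax3 had genotype coefficients of 0.35 and 0.41 for its 2 probes and dye coefficients of -0.08 and -0.20. For Meox2 these were 0.48 and -0.29. The dye coefficient rests on replicate 3 alone, so that a dye effect and anything particular to that array cannot be told apart.

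**Figure D4:**
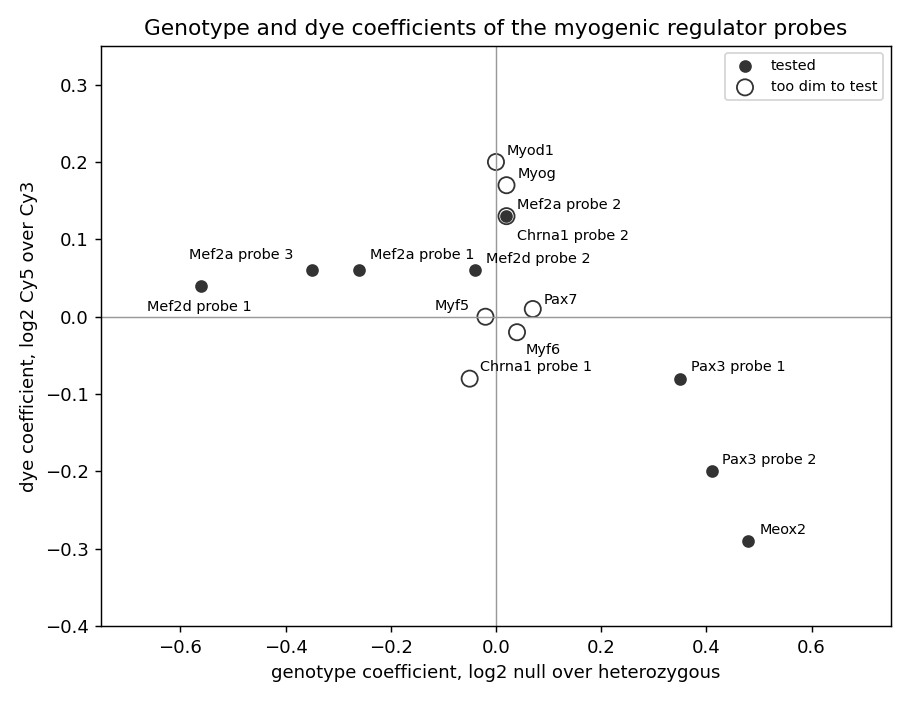
Genotype coefficient (log2 null over heterozygous) against dye coefficient (log2 Cy5 over Cy3) for the 15 probes, 1 point per probe, filled where tested. Myod1 and Myog lie on the dye axis at 0.20 and 0.17, the Pax3 probes and Meox2 lie at genotype coefficients of 0.35 to 0.48, and a Mef2d probe lies at -0.56.

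Of the 4 genes tested, 2 rose in null cultures, Pax3 and Meox2, and none fell, each gene being judged by its brightest probe. That is 2 of 4 where 60.3% of all genes were called, and the median ratio of the 4 was 0.16 against 0.003 over all genes. By probes, 8 of the 15 were tested and 5 called, 3 higher and 2 lower, where 59.9% of all probes were called, 29.6% higher and 30.3% lower. The called probes of Pax3 and Meox2 had a mean log2 intensity under 7, a range in which 43.9% of 5718 probes were called, 20.9% of the 5718 higher and 23.1% lower. Meox2 and the repeated Pax3 probe passed the filter only through the null channel, in which they are high.

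Pax3, which specifies migrating and dermomyotomal muscle progenitors, was higher in null cultures by both of its probes. The probe with 10 spots (A_51_P315734) read 1.75, 1.60 and 2.62 times its background in null channels of replicates 1 to 3, and 1.31, 1.1 and 1.24 in heterozygous channels. The genotypes do not overlap, and the heterozygous readings lie inside the negative-control band. Its ratios were 0.26, 0.28 and 0.43 (log2 0.32, SE 0.08, n = 3, limma adjusted p = 0.0097), or 1.25-fold higher. A bound was also taken for probes dim in 1 genotype. In it the dim channel took, on each array, the higher of the probe's own signal and the lowest signal well above background. Signals were those after loess and scaling between arrays. For this probe the bound was the same 1.25-fold, so it sets no separate minimum.

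The second Pax3 probe (A_55_P2033705) was above background in both genotypes, at 2.52, 1.68 and 3.25 in null channels against 1.74, 1.42 and 1.30. Only the null reading of replicate 2 falls below a heterozygous reading, that of replicate 1. Its ratios were 0.28, 0.14 and 0.62 (log2 0.35, SE 0.11, n = 3, limma adjusted p = 0.02), or 1.27-fold. The size depends on how background is treated: with the normexp offset at 0 instead of 50 the probes gave 0.92 and 0.76, and signals processed by the scanner software gave 2.31 and 1.14. Without replicate 3 the repeated probe kept its call (0.27, adjusted p = 0.027), while the second did not (0.21, adjusted p = 0.079). On the authors' deposited value table neither was called (0.14 and 0.05, limma adjusted p = 0.32 and 0.78). Neither was called with an ordinary t statistic (adjusted p = 0.072 and 0.2).

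Meox2, a homeobox factor of the somite and limb muscle that is also known from vessels, read 1.90, 1.98 and 3.88 times background in null channels against 1.43, 1.80 and 1.27. The lowest null reading, 1.90, and the highest heterozygous one, 1.80, are close, and readings are not normalized between dyes. Meox2 passed the filter only through the null channel. Its ratios of 0.26, 0.12 and 0.77 (log2 0.38, SE 0.12, SD 0.34, n = 3, limma adjusted p = 0.026) made a 1.30-fold difference, with replicate 3 the highest. With an offset of 0 it was 0.85. Without replicate 3 the call was lost (0.19, adjusted p = 0.11), as it was on the authors' deposited value table (0.18, adjusted p = 0.19). It was also lost with an ordinary t statistic (adjusted p = 0.26).

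Mef2a and Mef2d, which turn on muscle and heart genes and act in many other tissues, were above background on all arrays by 2 probes each, and the probes of each gene disagreed. For Mef2d the probe A_51_P504672 had ratios of -0.62, -0.43 and -0.60 (log2 -0.55, SE 0.09, n = 3, limma adjusted p = 0.00064) and so was 1.46-fold lower in null cultures, its readings being 2.46 to 3.79 times background in null and 3.46 to 4.07 in heterozygous channels. Its brighter probe (A_55_P1966958) had -0.06, 0.10 and -0.11 (log2 -0.02, SE 0.09, limma adjusted p = 0.85). The gene was therefore not called by its brightest probe, but was called lower where its probes were averaged (-0.29, adjusted p = 0.016). On the authors' deposited value table the first of these probes stood at -0.24 and was not called (limma adjusted p = 0.10), nor was it with an ordinary t statistic (adjusted p = 0.053).

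For Mef2a the brightest probe had ratios of 0.01, -0.41 and -0.32 (log2 -0.24, SE 0.10, n = 3, limma adjusted p = 0.068), close to the threshold of 0.05. A probe of like brightness had -0.09, 0.39 and -0.11 (log2 0.06, limma adjusted p = 0.67), with replicate 2 against the others. The dimmest probe, above background on all 3 heterozygous arrays and on 1 null array, had -0.21, -0.38 and -0.42 (log2 -0.33, SE 0.09, limma adjusted p = 0.0094) and passed the filter only through the heterozygous channel. The gene was called lower with a dye term (-0.26, adjusted p = 0.031) and without replicate 1 (-0.37, adjusted p = 0.025), and stood at 0.09 where arrays were centred on their median without loess, a setting that called the probe of like brightness higher (0.39, adjusted p = 0.013). The family members Mef2b and Mef2c were not called, at 0.23 (adjusted p = 0.087) and -0.09 (adjusted p = 0.38).

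The wider somite and muscle pathway moved in both directions. Of 17 somite and muscle progenitor genes, 15 were tested, 4 rose and 7 fell, with a median of -0.03. Meox1, the paralogue of Meox2 in the somite, rose 2.58-fold, with ratios of 1.11, 1.20 and 1.80 (limma adjusted p = 4.1e-05). It was above background on all 3 null and no heterozygous array, so that it passed the filter only through the null channel. Tcf15, a bHLH factor of the epithelial somite, rose by 0.97 (SE 0.10), and Tcf21, a factor of head muscle and of fibroblast-like mesenchyme, by 1.26 (SE 0.09). Fgfr4, a receptor of muscle progenitors and other mesoderm and endoderm, fell by 2.36 (SE 0.10), Tbx1, a factor of pharyngeal muscle and second heart field, fell by 1.30 (SE 0.08), and Eya2, a co-activator that acts ahead of the myogenic factors, fell by 1.23 (SE 0.08). Lbx1 and Msc were too dim to test.

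Of 13 paraxial mesoderm and sclerotome genes, 9 were tested, and 6 rose and 3 fell, with a median of 0.38. The paraxial mesoderm factors Foxc2, Foxc1 and Mesp2 rose by 1.30, 0.58 and 0.53 (SE 0.09, 0.08 and 0.09). Mesp2, counted among the 6, passed the filter only through the null channel, in which it is high. Among those that fell were Pax1 and Pax9, which act in sclerotome and pharyngeal endoderm, at -1.91 and -1.31. Msgn1, Uncx, Nkx3-2 and Tbx18 were too dim. Of the 7 other Pax genes on the array Pax1 and Pax9 alone could be tested, and Pax9 passed the filter only through the heterozygous channel, in which it is high. On the authors' deposited value table Mesp2 was not called (0.20, adjusted p = 0.19).

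Genes that assist or hold back the myogenic factors were mostly detected. Among 19 cofactors, 4 rose and 7 fell (median -0.07). The E-proteins that pair with bHLH factors were split: Tcf3 rose by 0.62 (SE 0.09), Tcf12 was called higher by its brightest probe (0.52) and lower by another (-0.28), and Tcf4 was not called by its brightest probe (0.04, adjusted p = 0.73) and lower by another (-0.58). Carm1, a histone methyltransferase, rose by 0.62. Myocd, a co-activator of heart and smooth muscle genes, fell by 2.88 (SE 0.10), Rbm24, a splicing factor of heart and skeletal muscle, fell by 2.36 (SE 0.10), and Smarcd3, a chromatin subunit needed in heart and muscle, fell by 1.15. Of the repressors, 19 of 20 were tested, with 3 higher and 11 lower (median -0.39). Twist1 and Twist2 rose by 0.61 and 0.60, and Mdfic was called higher by its brightest probe (0.31; not called on the authors' table) and lower by another (-0.23, adjusted p = 0.038), while Id2, which binds E-proteins, fell by 2.03, Hdac9, which represses Mef2, fell by 1.1, and Snai2 fell by 0.96.

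Downstream of the regulators, 28 genes of the skeletal contractile apparatus and of myoblast fusion were on the array. Of these 22 were tested, 8 rose and 10 fell, with a median of -0.09. Mymx, which drives fusion of myoblasts, rose by 1.34 (SE 0.11), but its partner Mymk stood at 0 (SE 0.08). Actn3 and the embryonic myosin Myh3 rose by 1.09 and 0.86. The alkali light chain Myl1 fell by 2.83 (SE 0.09), the perinatal myosin Myh8 fell by 2.47 (SE 0.08), and Tnni1, the slow skeletal troponin I that the embryonic heart also makes, fell by 1.69 (SE 0.09). The adult myosins Myh1, Myh2, Myh4 and Myh13, with Ckm and Klhl41, were too dim to test. At the neuromuscular junction, where Chrna1 acts, 6 of 11 genes were tested, 1 rose and 4 fell. The receptor subunit Chrnb1 fell by 0.44 (SE 0.08; not called with median centring, adjusted p = 0.062), while Chrnd, Chrng and Chrne, Musk and Dok7 were too dim. Agrn, which many tissues make, fell by 0.80.

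**Figure D5:**
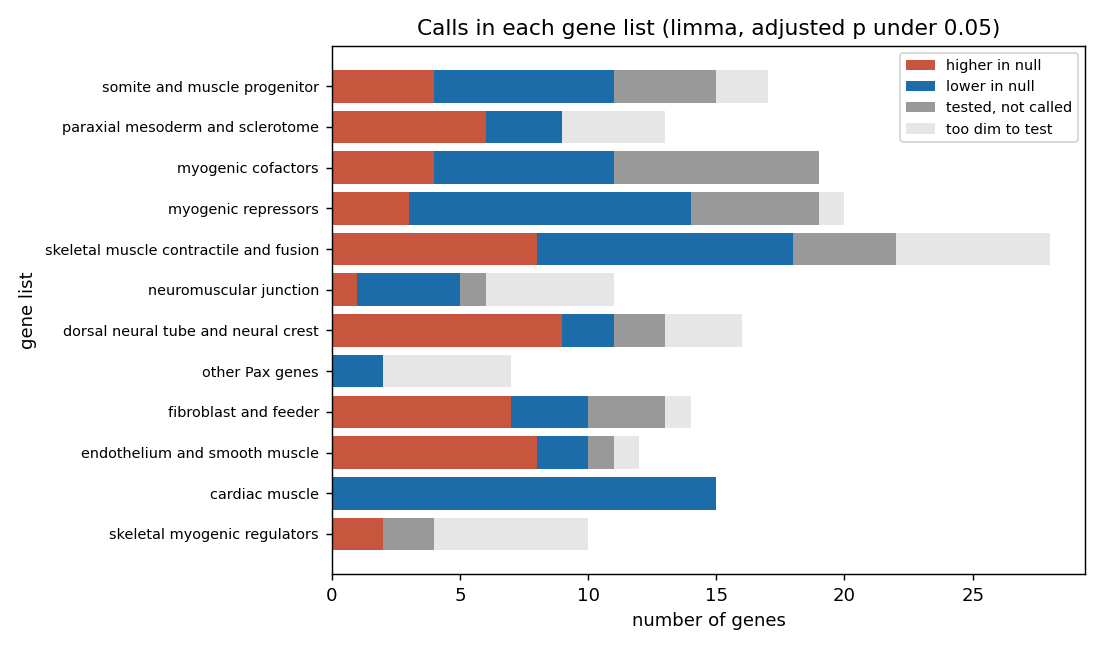
Number of genes on the array in each list that were called higher or lower in null cultures, tested and not called, or too dim to test (bars start at 0). Of the 10 skeletal myogenic regulators 2 were called higher and 6 were too dim, while all 15 cardiac muscle genes were called lower.

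Marker lists of other cell types in which Pax3 and Meox2 are known are given beside them, to be read against the 60.3% of all genes that were called. No test of these lists was run. Of 16 dorsal neural tube and neural crest genes, 13 were tested, 9 rose and 2 fell (median 0.52). Ets1, counted among the 9, was called higher by its brightest probe (0.52) and lower by another (-0.61, limma adjusted p = 0.0012). Zic2 rose by 2.60 (SE 0.16), while Zic1 was called higher by its brightest probe (1.18) and not called by another (0.19, adjusted p = 0.17). Foxd3 rose 2.46-fold (2.41-fold by the bound described for Pax3) and passed the filter only through the null channel, in which it is high. Msx2 fell by 1.02 and Gdf7, which passed only through the heterozygous channel, fell by 0.30. Sox10, which defines neural crest, was not called at 0.19 (adjusted p = 0.075), nor was Wnt1 at 0.15 (adjusted p = 0.18), and Wnt3a, Olig3 and Tfap2b were too dim. The mean log2 level of the 13 genes lay between 8.27 and 8.43 on null channels and between 7.70 and 7.89 on heterozygous channels. Their part in the Pax3 result was not tested.

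For Meox2 the lists to set beside it are endothelium and smooth muscle, with 8 genes higher and 2 lower of 11 tested (median 0.56), and fibroblasts and feeders, with 7 higher and 3 lower of 13 (median 0.27). Cdh5 of the endothelium rose by 1.23 and Actg2 of smooth muscle by 1.95, while Des fell by 1.19. The endothelial receptor Kdr was called higher by its brightest probe (1.19) and not called by another (-0.19, adjusted p = 0.097). Col1a2 and Lum of fibroblasts rose by 1.59 and 1.17, while Col6a1 and Pdgfra fell by 0.76 and 0.55, Pdgfra not being called with median centring (-0.18, adjusted p = 0.28). Mean log2 levels were 10.63 to 10.74 in null and 10.08 to 10.17 in heterozygous channels for the 11 genes, and 10.58 to 10.87 against 9.99 to 10.53 for the 13. Myh11 and Fap were too dim. Their part in the Meox2 result was not tested.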

How the data were processed

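The scanner's spot intensity values, local backgrounds and flags come from Agilent's Feature Extraction, version 11.5.1.1 in the headers of the deposited files and 8.5.1.1 per the submitters' processing notes. The authors deposited a value table that was read as log2 ratios; its scale, normalization and centring are not stated (column medians -0.10, -0.11 and 0.07). All 3 arrays came from 1 slide and 1 scan. With limma 3.58.1 in R 4.3.3, foreground medians were corrected by normexp (offset 50), ratios normalized by loess, outlier and control spots left out and spots of a probe averaged. The ratios of replicate 3 were turned, so 2 arrays have one dye orientation and 1 the other, which leaves part of any dye effect in the mean. Probes above background in a genotype on all 3 arrays and with ratios on at least 2 were kept (24552). Ratios were tested against 0 (lmFit, eBayes, Benjamini-Hochberg over the probes kept, threshold 0.05), and every SE is the moderated one. A gene took its brightest probe. Probes were named through accessions in a RefSeq table (28025 of 39429, 71.1%). The array design is on mm9 per the file headers, so no gene coordinates of that table are printed beyond the promoters' own. Beside the 10 regulators, genes named are, per list, up to 3 called higher and 3 lower with the largest change of equal sign on all arrays; Mef2b, Mef2c, Tcf4, Mymk, Wnt1, Sox10 and genes too dim to test were named outside this rule, and 1 gene that it picks is not reported here. The members and lists were chosen with earlier results of these data known. The test was checked on simulated ratios of 24326 probes, of which few were changed, unlike here. It called 16% of 50 changes of 0.5 on the log2 scale, 72% of changes of 1 and 96% of changes of 2.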

Additional observations from a re-analysis of the deposited data

How the results depend on the processing

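Of the 10 regulators, 2 were called with the settings of the report, and 2 also with processed signals, without background subtraction, with median centring, with dim probes kept in and with an offset of 0, an alternative added after seeing the data. A dye term and averaged probes each gave 3 calls, 2 higher and 1 lower. The count was 1 with both channels above background, and 0 on the authors' deposited value table, with replicate 3 as labelled, with an ordinary t statistic and with the channels as separate samples without a replicate block. Leaving out a replicate gave 0 to 3 calls, with 0 without replicate 3.

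Over all genes limma called 11943; 3998 were called with an ordinary t statistic, 8140 with channels as separate samples, 8160 on the authors' table, and 0 with replicate 3 as labelled, which also gave 0 in each of the 11 lists. Median centring gave 8540 higher and 3008 lower and moved the median ratio of all genes from 0.003 to 0.23. The second Pax3 probe stood at -0.06 and Gdf7 at 0.02 with replicate 3 as labelled, and Acta2 at 0.11 with median centring. The ordinary t statistic called 6 somite, 5 paraxial mesoderm, 4 cofactor, 5 repressor, 7 contractile, 1 neuromuscular, 2 neural, 1 other Pax, 2 fibroblast and 4 endothelium genes. The authors' table gave 5 paraxial mesoderm and 2 neuromuscular genes, separate channels 7 cofactor, 11 contractile and 2 neuromuscular genes, median centring 2 and an offset of 0 gave 3 neuromuscular genes, and leaving out a replicate 2 to 3 of them. Requiring both channels above background left 7 neural and 1 other Pax gene. Of 61 named genes and probes, 33 lost a call with an ordinary t statistic, 10 on the authors' table, 9 with separate channels, 52 with replicate 3 as labelled and 2 to 3 on leaving out a replicate. The cause was not tested. Each array already pairs the genotypes, so that the ratios are the paired analysis.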
